A study of Homo sapiens with 12 samples.

Results

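The comparison described here sets the 4 arrays of SH-SY5Y cells that received SETD1A siRNA s18789 against the 4 arrays of cells that received a control siRNA, 8 of the 12 arrays of the study. The arrays were chosen by their labels alone. Probes entered the comparison if at least 4 of 12 arrays detected them at p under 0.01, and 15922 of 47321 did, standing for 9833 of 20046 named genes. SH-SY5Y is an established human neuroblastoma line that keeps traits of the sympathetic nervous system. Cells of all groups were grown in DMEM/F12 with glutamine and 10% fetal bovine serum, transfected by Lipofectamine RNAi Max and taken 96 hours later, and total RNA was labelled with biotin for single-colour Illumina bead arrays. The remaining 4 arrays hold cells given another siRNA against the same gene, s18790. They share in the normalization, the detection filter and the estimate of the error, and are set beside s18789 below. All groups are the same transfected line, and the control siRNA is described without its sequence. The labels do not state whether replicates came from independent cultures, and p-values therefore cover the spread between samples, which may be technical.

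SETD1A is the catalytic subunit of a SET1 complex, which adds methyl groups to lysine 4 of histone H3 near the starts of transcribed genes. Its partners WDR5, RBBP5, ASH2L and DPY30 form a core shared with the related MLL complexes, and CXXC1 binds unmethylated CG dinucleotides, which are dense in many promoters. Rare damaging variants of SETD1A are associated with schizophrenia, and a small interfering RNA lowers a transcript by guiding its cleavage.

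The 8 arrays had median intensities of 63.1 to 70.2 units, and 29.3% to 33.6% of all probes were detected on them. Their pairwise correlations were 0.966 to 0.994 over the kept probes, and no arrays held identical values. Control replicate 4 stood apart from the other controls, at 42.3 on the first principal component of the 8 arrays against -13.5 to -7.71 for control replicates 1 to 3 and -16.0 to 16.9 for s18789. Array s18790 replicate 2 stood apart more strongly, at 83.9 on the first component of all 12 arrays. It enters this comparison through the shared error, the normalization over all 12 arrays and the detection filter. Of the adrenergic neuroblastoma markers on the array, which include the sympathetic transcription factors PHOX2A, HAND2, GATA3 and ISL1 and the noradrenaline enzyme DBH, 20 of 22 were kept. Of the mesenchymal neuroblastoma markers on the array, 20 of 34 were kept. None of the 11 Schwann and glial cell markers on the array was detected on any of the 8 arrays. A transcript's lower signal in such bulk RNA cannot be told apart from fewer cells that hold it.

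The targeted transcript was lower on every s18789 array. The SETD1A probe (ILMN_1714327, the only one on the array) had log2 intensities of 7.52, 7.65, 7.51 and 8.04 on control replicates 1 to 4, and of 7.34, 7.23, 7.10 and 7.31 on s18789 replicates 1 to 4. The groups did not overlap, and the highest value belonged to control replicate 4. The mean was 7.68 ± 0.25 (SD, n = 4) in controls and 7.25 ± 0.11 (SD, n = 4) with s18789, a level of 74.1% of control (log2 difference -0.43 ± 0.15 SE, 95% interval -0.77 to -0.10). An exact two-sided permutation test gave p = 0.0286, the smallest that 4 arrays against 4 can give over 70 arrangements. Adjusted over all 15922 probes the limma p was 0.619, and it lay between 0.0537 and 1 under all alternatives tried, with differences of -0.49 to -0.31. The smallest difference, -0.31, was found without control replicate 4.

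SETD1A's partners gave no call. Of the 18 measured genes of the SET1 and MLL complexes, SETD1A among them, 0 passed the test in either direction. At an unadjusted p under 0.05, which 6.37% of all genes reached, 1 was higher and 1 lower, the latter being SETD1A itself. The median difference of the 18 was -0.02, beside 0.01 over all 9833 genes, and it became 0.07 when arrays were scaled by their medians. PAGR1 (-0.22 ± 0.10), HCFC1 (-0.19 ± 0.10) and ASH2L (-0.18 ± 0.09) lay below all control values with adjusted p of 0.836, 0.934 and 0.885. The paralogue SETD1B differed by -0.03 ± 0.15 and CXXC1 by -0.01 ± 0.12. BOD1, which associates with SET1 complexes, lay above all control values (0.31 ± 0.12, adjusted p = 0.653). The H3K4 demethylases measured, KDM1A and KDM5B, differed by 0.03 and -0.16 with 0 calls.

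Across the array, 15 of 15922 probes were called (0.0942%), 9 higher (0.0565%) and 6 lower (0.0377%), with called meaning a Benjamini-Hochberg adjusted limma p under 0.05. By gene, 10 of 9833 were called (0.102%). ADGRG2, CGNL1, NTS, SCARNA8, DCX, TMEM100 and GAP43 rose and CXCR4, CORIN and CHST15 fell. All 10 are on the gene lists described below, which were drawn up with earlier results of these data known. A call within a list is therefore no support for the list. Before adjustment 960 probes (6.03%) had p under 0.05, and 1128 probes (7.08%) had groups that did not overlap, 455 higher (2.86%) and 673 lower (4.23%). Most differences were small: the median size was 0.11 on the log2 scale beside a median SE of 0.16, and 7 probes differed by more than 1. With arrays scaled by their medians, 10 probes were called, 8 higher and 2 lower.

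The number called changed with the arrays that were fitted. Leaving out an s18790 array changes the error alone, while leaving out a control or s18789 array also changes the differences. Without s18790 replicate 2 it was 80, and without both that array and control replicate 4 it was 123, the same 15 among them each time. Leaving out any other single array gave 3 to 11: 4, 6, 3 and 9 without control replicates 1 to 4, 3, 5, 3 and 4 without s18789 replicates 1 to 4, and 11, 10 and 11 without s18790 replicates 1, 3 and 4. ADGRG2 and CHST15 kept their calls in all 24 alternatives that could be fitted, the other 8 genes did not.

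**Figure D1:**
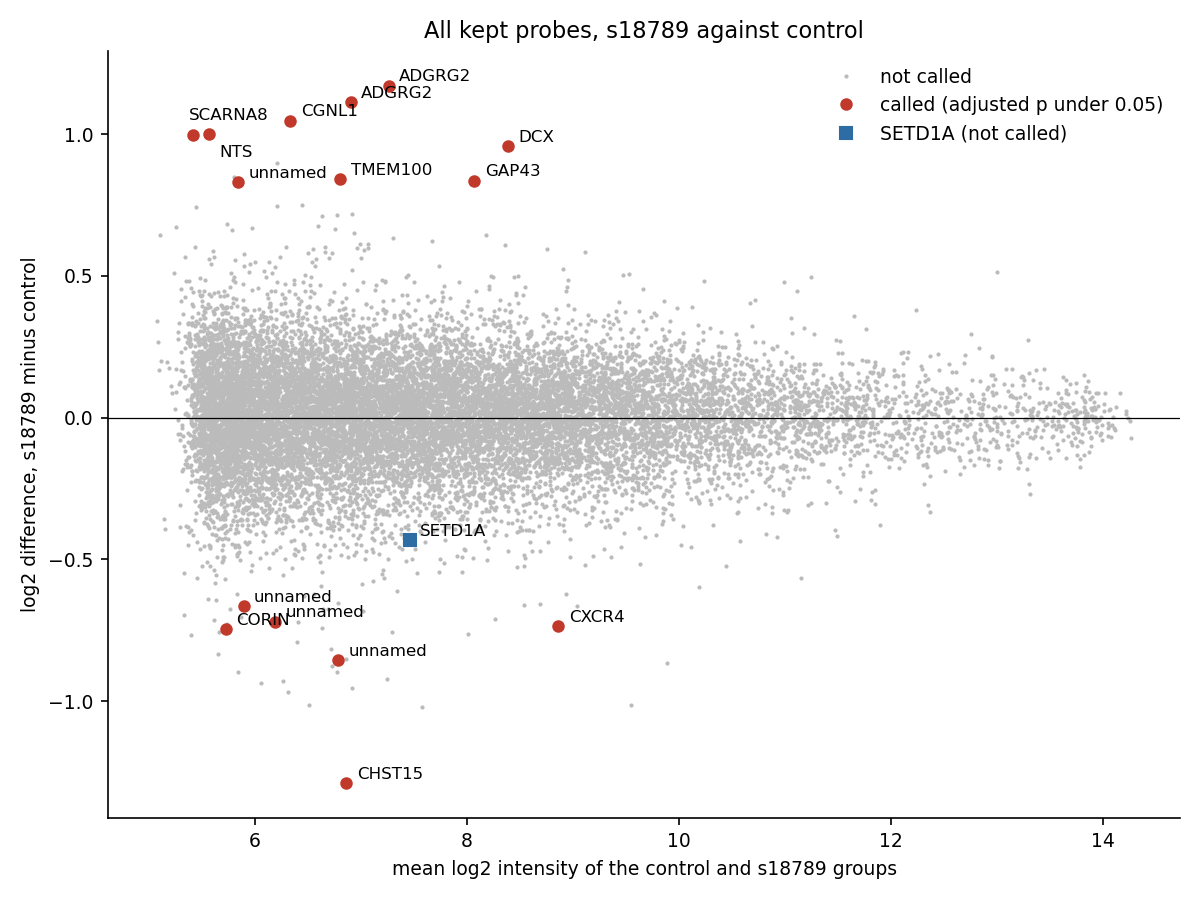
Log2 difference of each of the 15922 kept probes, s18789 minus control, against its mean log2 intensity in these groups. Red points are the 15 called probes, 4 of them without a gene name, and the blue square is SETD1A at -0.43; the points of NTS, SCARNA8, CORIN and the unnamed probe that rose are fitted differences from a group below background.

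To show the ground these genes lie on, the 250 bases before the annotated start are printed for 4 of them, the gene with the largest rise, the gene with the largest fall, and the neuronal genes DCX and NTS, with CG dinucleotides in capitals. They are RefSeq sequences of GRCh38.p14, written 5′ to 3′ along the gene's own strand.
ADGRG2 (chrX:19122469-19122718, minus strand): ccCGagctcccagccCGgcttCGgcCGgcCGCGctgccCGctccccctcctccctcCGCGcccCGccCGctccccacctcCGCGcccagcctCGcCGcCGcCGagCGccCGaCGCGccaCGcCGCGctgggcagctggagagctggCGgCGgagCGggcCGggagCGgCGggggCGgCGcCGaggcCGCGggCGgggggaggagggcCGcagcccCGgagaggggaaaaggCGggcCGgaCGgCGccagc
CHST15 (chr10:124093599-124093848, minus strand): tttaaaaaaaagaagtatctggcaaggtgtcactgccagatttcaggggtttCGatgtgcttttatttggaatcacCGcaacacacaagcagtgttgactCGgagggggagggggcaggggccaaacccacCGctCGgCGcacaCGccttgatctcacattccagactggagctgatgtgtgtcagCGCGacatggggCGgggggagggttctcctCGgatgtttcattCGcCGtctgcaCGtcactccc
DCX (chrX:111412193-111412442, minus strand): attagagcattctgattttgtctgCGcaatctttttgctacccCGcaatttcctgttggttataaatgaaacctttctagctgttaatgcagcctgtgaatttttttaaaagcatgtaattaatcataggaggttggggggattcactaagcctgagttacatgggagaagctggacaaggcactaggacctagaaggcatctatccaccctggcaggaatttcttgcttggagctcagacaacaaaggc
NTS (chr12:85874045-85874294, plus strand): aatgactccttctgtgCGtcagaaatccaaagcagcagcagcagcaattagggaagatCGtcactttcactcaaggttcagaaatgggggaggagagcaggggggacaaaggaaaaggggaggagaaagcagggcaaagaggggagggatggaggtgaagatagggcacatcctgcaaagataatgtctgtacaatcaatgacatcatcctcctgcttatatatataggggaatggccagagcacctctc
The ADGRG2 sequence holds 42 CG dinucleotides, more than 97.8% of the promoters of tested genes, whose median was 21 over 8056 matched promoters. CHST15 holds 14, and DCX and NTS hold 2 each, which is more than 1.7% of those promoters. Of the other called genes, CGNL1 holds 33, CXCR4 24, CORIN 8 and GAP43 7, no promoter was matched for TMEM100 or SCARNA8, and SETD1A's own holds 23. The letters TATAAA, searched on both strands, occur before DCX and CXCR4 and before 4.82% of the tested genes. Genes that rose thus include both the densest and the sparsest of these 8 sequences, and a match of letters is a description only.

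Among genes of the cell surface, the adhesion G protein-coupled receptor ADGRG2, best known from the epididymis, rose with the smallest p. Its log2 intensities were 6.80, 6.60, 6.62 and 6.70 on control replicates 1 to 4 and 7.83, 7.93, 7.74 and 7.90 with s18789. Every s18789 array lay about 1 log2 unit above every control, and the mean rose 2.25-fold (1.17 ± 0.09 SE, 95% interval 0.98 to 1.36, adjusted p = 0.000169). A second probe (ILMN_1751885) read 6.40, 6.54, 6.31 and 6.15 in controls and 7.56, 7.48, 7.35 and 7.46 with s18789 (1.11 ± 0.11, adjusted p = 0.00178). No other of the 11 measured adhesion receptors passed the test, and the list's median was 0.02. ADGRV1, which is required in the inner ear, differed most (0.36 ± 0.23, adjusted p = 1).

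CXCR4, through which the chemokine CXCL12 guides migrating neurons, fell. On control replicates 1 to 4 its brighter probe (ILMN_1801584) read 9.32, 9.20, 9.12 and 9.29, and with s18789 it read 8.61, 8.33, 8.54 and 8.51. All s18789 values lay below all controls, at 60.0% of the control level (-0.74 ± 0.12, adjusted p = 0.0388). A second kept probe (ILMN_2320888) read 7.66, 7.61, 7.48 and 7.85 against 7.12, 6.96, 6.96 and 7.12; it did not overlap either but was not called (-0.61 ± 0.14, adjusted p = 0.184). The CXCR4 call ended at adjusted p of 0.0583 to 0.198 without any single control or s18789 array or without s18790 replicate 3 or 4, and at 0.468 with arrays scaled by their medians. None of the other 10 measured genes of its axis passed. The kinase GRK5 (-0.21 ± 0.13) and the alternative ligand MIF (0.02 ± 0.11) are examples, and the list's median was 0.03.

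TMEM100, a small membrane protein induced by BMP9 and ALK1 signalling in mouse endothelium, rose. It read 6.27, 6.53, 6.39 and 6.36 in controls and 7.36, 7.08, 7.40 and 7.07 with s18789. The groups were separated by more than their own ranges, and the mean rose 1.79-fold (0.84 ± 0.11, adjusted p = 0.0181). This call ended without control replicate 1 or 3 or s18789 replicate 1 or 3 (adjusted p of 0.072 to 0.0851). No other of 19 measured BMP and TGF-beta genes passed, and their median was -0.02, or 0.05 with median scaling. The BMP target ID3 (-0.30 ± 0.13, adjusted p = 0.744) and the inhibitory SMAD6 (-0.25 ± 0.11, adjusted p = 0.810) lay below all controls.

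CGNL1 encodes paracingulin, which ties tight and adherens junctions to the cytoskeleton. Its levels were 5.80, 6.12, 5.97 and 5.37 on control replicates 1 to 4, the last not above background, and 6.87, 6.80, 6.81 and 6.96 with s18789. The lowest s18789 array exceeded the highest control by more than 0.5, and the mean difference was 1.05 ± 0.15 (adjusted p = 0.0184), or 0.90 without control replicate 4 (adjusted p = 0.0198). It was not called without control replicate 1 or 3 or without any single s18789 array (0.0566 to 0.0992). Its paralogue CGN was not called (-0.10 ± 0.14), and 0 of the other 12 measured junction genes passed.

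Among neuronal genes, the microtubule-binding protein DCX and the growth cone protein GAP43 rose. DCX, found in migrating young neurons, read 7.97, 8.01, 7.91 and 7.77 in controls and 8.82, 8.76, 8.98 and 8.94 with s18789 (0.96 ± 0.15, adjusted p = 0.0388). GAP43, a substrate of protein kinase C in growing axons, read 7.59, 7.51, 7.51 and 8.01 in controls and 8.53, 8.53, 8.40 and 8.51 with s18789 (0.84 ± 0.13, adjusted p = 0.0388). Neither gene's groups overlapped, and the highest control value of GAP43 came from control replicate 4. A second DCX probe (ILMN_1654855) did not meet the detection filter. DCX lost its call at 0.0681 to 0.200 without any control or s18789 array or s18790 replicate 1 or 3, and at 0.058 without the filter on detection. GAP43 lost it at 0.0551 to 0.213 without control replicate 1, 2 or 3, any s18789 array or s18790 replicate 1, 3 or 4, at 0.083 with median scaling and at 0.0521 without the filter.

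No other microtubule or growth cone gene passed the test. Of 32 measured, DCX and GAP43 were called higher and 0 lower, beside 0.102% of all genes called, and the median was 0.04. TUBB3, the neuronal tubulin (0.08 ± 0.10), STMN2, a growth cone stathmin (-0.13 ± 0.12), and MAP1B (-0.26 ± 0.34) are members that did not pass. DPYSL3 (0.30 ± 0.10, adjusted p = 0.590) and STMN1 (0.23 ± 0.11, adjusted p = 0.814) lay above all controls. Of 27 measured axon guidance genes 0 passed, 2 lay above all controls and 4 below, 22.2% without overlap beside 7.72% of all genes. The list's median of -0.05 changed sign in 4 of 25 alternatives, at most to 0.012 without control replicate 4. The netrin receptor UNC5A (-0.50 ± 0.13, adjusted p = 0.293) and the semaphorin receptor PLXNA2 (-0.38 ± 0.12, adjusted p = 0.489) lay below all controls, and the semaphorin SEMA6A (0.36 ± 0.14, adjusted p = 0.661) lay above them.

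Among secreted peptides, NTS, the precursor of neurotensin, rose from below background. It read 5.37, 5.03, 5.11 and 4.75 on the control arrays, none above background, and 5.90, 6.10, 6.29 and 5.97 with s18789, all above it. A second NTS probe (ILMN_2189366) did not meet the detection filter. The kept probe (ILMN_1764690) met it through siRNA arrays only, so its being kept is no support for a direction. The level was at least 1.31-fold higher, taking each control array at its NTS reading or at its dimmest detected probe, whichever was brighter (adjusted p = 0.0184). That call ended without control replicate 2 or 3 or any single s18789 array (0.0636 to 0.109) and without background correction or with the deposited log2 values (0.0608 and 0.0624). NPY, a peptide of sympathetic neurons, was the gene nearest below the threshold, at 12.76, 12.68, 12.72 and 12.84 in controls and 13.26, 13.21, 13.26 and 13.32 with s18789 (0.51 ± 0.09, adjusted p = 0.0544). All 4 s18789 values of NPY exceeded all controls.

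Of 16 measured neuropeptide and granin genes NTS alone was called, and the median was -0.07, or 0.03 with median scaling. The calcitonin gene-related peptide gene CALCB (0.60 ± 0.17, adjusted p = 0.377) lay above all controls. On that list 3 genes lay above all controls and 3 below, 37.5% without overlap beside 7.72% of all genes. The secretory chaperone SCG5 (-0.41 ± 0.09, adjusted p = 0.170), CHGA (-0.29 ± 0.08, adjusted p = 0.404) and CHGB (-0.17 ± 0.10, adjusted p = 0.965), proteins of dense-core granules, were the 3 below, without passing. CORIN, a membrane protease that activates atrial natriuretic peptide, read 6.02, 6.19, 6.21 and 5.98 in controls and 5.05, 5.42, 5.44 and 5.51 with s18789. All 4 control arrays were above background and none of the s18789 arrays, so it was at least 1.45-fold lower (adjusted p = 0.0388). No s18790 array was above background either, so the detection filter kept it through the control arrays only. The CORIN call ended without any single array other than s18790 replicate 2 (0.0551 to 0.213) and with another background correction, offset, scaling or variance model (0.0908 to 0.125). Its substrate gene NPPA differed by -0.13 ± 0.14.

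CHST15, which adds the 6-sulfate that turns chondroitin sulfate A into the oversulfated E form, gave the largest fall. Control replicates 1 to 4 read 7.54, 7.34, 7.39 and 7.76, and s18789 replicates 6.30, 6.19, 6.24 and 6.15. The groups were more than 1 log2 unit apart, and the level was 40.9% of control (-1.29 ± 0.13, 95% interval -1.56 to -1.01, adjusted p = 0.00165). It was the only call among 11 measured chondroitin and heparan sulfotransferases, whose median was 0.03. The chondroitin sulfotransferases CHST3 (-0.03 ± 0.15) and CHST7 (-0.10 ± 0.16) and the heparan sulfotransferase HS6ST2 (-0.04 ± 0.22) did not pass. The 15 measured chain enzymes and core proteins gave 0 calls and a median of 0.07. DCN (0.27 ± 0.10, adjusted p = 0.624) and XYLT1 (0.29 ± 0.13, adjusted p = 0.828), which encode a core protein and the enzyme that starts the chain, lay above all controls.

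**Figure D2:**
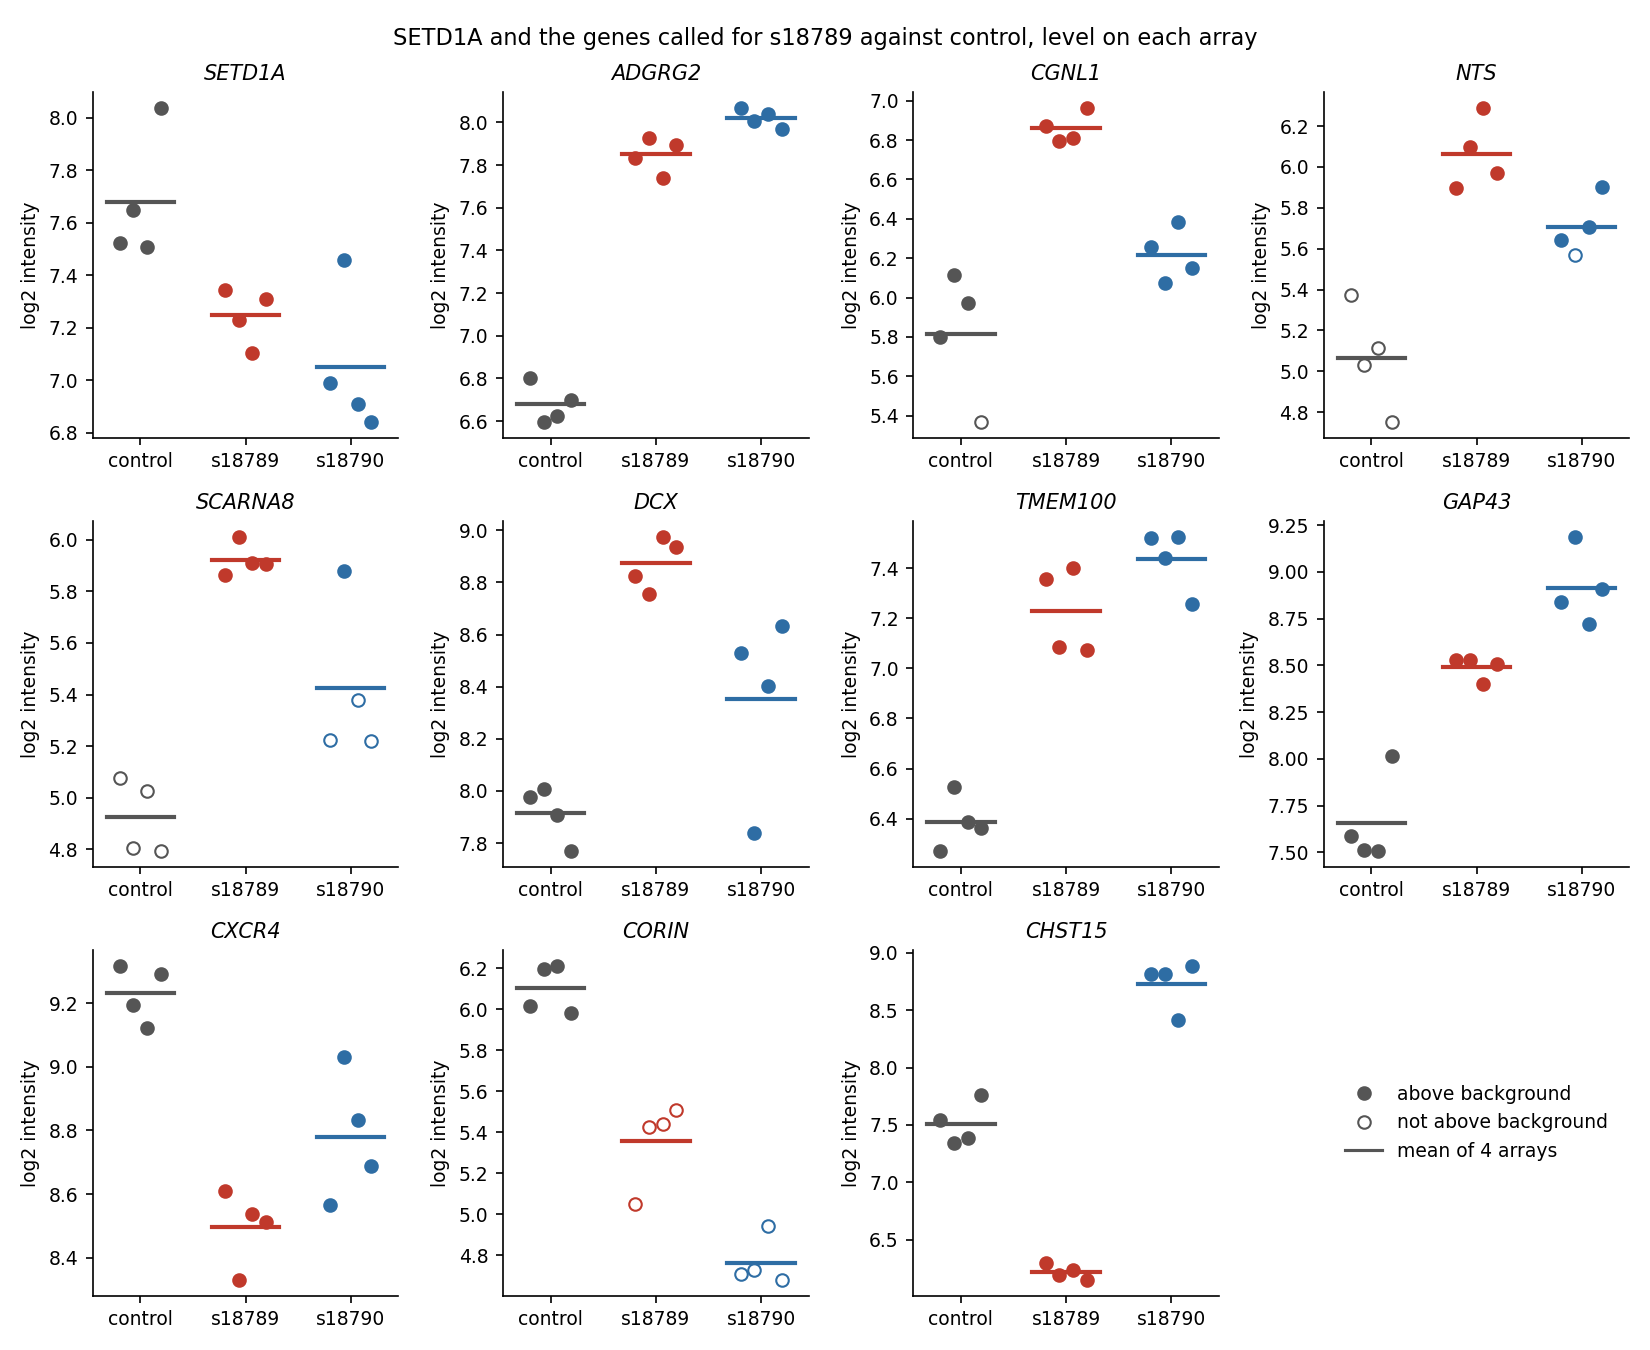
Log2 intensity on each array for SETD1A and the 10 called genes in controls (grey), s18789 (red) and s18790 (blue), with the mean of 4 arrays as a bar and open points where the probe was not above background; the vertical scale differs between panels. For every gene the s18789 points lie on one side of the control points, and for CHST15 the s18790 points lie on the other side.

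SCARNA8 belongs to the small Cajal body RNAs, which guide the chemical modification of spliceosomal RNAs. It read 5.07, 4.80, 5.03 and 4.79 in controls, none above background, and 5.86, 6.01, 5.91 and 5.91 with s18789, all above it. It was at least 1.19-fold higher (adjusted p = 0.0210), a call that ended without any single control or s18789 array (0.0720 to 0.133), and without background correction, with the deposited log2 values or with an offset of 50 (0.0662, 0.0688 and 0.0575). Of 23 family members on the array 7 were kept. SCARNA8 and SCARNA11 were detected on all 4 s18789 arrays and no control, and SCARNA14 on all 4 and 1 control, so the filter kept them through arrays where they are high and the kept members are no support for a direction. SCARNA18 read 5.88, 5.91, 5.60 and 5.67 in controls and 6.33, 6.86, 6.95 and 6.52 with s18789 (0.90 ± 0.17, adjusted p = 0.0986), SCARNA14 differed by 0.66 ± 0.19 (adjusted p = 0.399) and SCARNA13 by 0.45 ± 0.21 (adjusted p = 0.828). SCARNA10 (0.12 ± 0.14) and SCARNA16 (0.08 ± 0.23) overlapped the controls.

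As a description, the median difference of the 7 was 0.56 on the log2 scale, 0.25 with SCARNA8 and SCARNA11 set at their bounds, 0.26 without background correction, and 0.12 over the 3 that were detected on all 12 arrays. Most of these RNAs lie in introns of host genes. HAUS6, the host of SCARNA8, was not measured, and of the hosts measured none passed: TMEM167A, the host of SCARNA18, differed by 0.08 ± 0.16, CHD4, that of SCARNA11, by -0.05 ± 0.10, and TIPIN, that of SCARNA14, by 0.35 ± 0.17 (adjusted p = 0.861). The family was taken up with SCARNA8's earlier result known, and the intensities were near background.

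Beyond the called genes, 759 of 9833 genes (7.72%) had groups that did not overlap, 310 higher (3.15%) and 449 lower (4.57%). Those with the largest differences that were above background on all arrays of a group are given as values. Higher ones were MGST1, a membrane glutathione transferase (0.74 ± 0.13, adjusted p = 0.0836), the M-current channel KCNQ3 (0.71 ± 0.28, adjusted p = 0.695), the calmodulin-binding NRGN (0.68 ± 0.19, adjusted p = 0.393), the phosphatase PPEF1 (0.66 ± 0.27), the procollagen protease ADAMTS3 (0.65 ± 0.16) and the chromatin remodeller RAD54L2 (0.64 ± 0.14). The heparan sulfate proteoglycan GPC3 and the calcium-binding TESC were below background on all controls and were at least 1.47-fold (adjusted p = 0.0940) and at least 1.32-fold higher (adjusted p = 0.206). The detection filter kept both through siRNA arrays only, so their being kept is no support for a direction. None of these 8 genes passed the test.

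Lower ones were LRRC26, an auxiliary subunit of the BK potassium channel (-1.01 ± 0.19, adjusted p = 0.0940), ZNF467 (-0.88 ± 0.18), LRRC17 (-0.85 ± 0.30), the corepressor TLE6 (-0.82 ± 0.16), the homeobox gene DLX5 (-0.79 ± 0.17), the dopamine receptor partner CALY (-0.76 ± 0.18) and the synaptotagmin SYT7 (-0.76 ± 0.21), none with an adjusted p under 0.05. LRRC26 read 7.09, 6.97, 6.83 and 7.20 in controls and 6.18, 5.94, 5.65 and 6.26 with s18789. The artemin receptor GFRA3 (at least 1.66-fold lower, adjusted p = 0.316), the T-type calcium channel CACNA1G (at least 1.42-fold, 0.170) and the potassium channel KCND1 (at least 1.16-fold, 0.454) were above background on all controls and on no s18789 array. GFRA3 was above background on no s18790 array either, so the detection filter kept it through the control arrays only. CACNA1G was also the lowest of the 12 measured genes on the list of rare-variant schizophrenia genes, of which 0 passed.

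Genes of DNA replication had small and mostly positive differences. Of 40 measured genes of the G1/S list 0 passed and 38 had positive differences, or 95%, beside 52.7% of all genes. The median was 0.11, and the median per array was 0.10 to 0.20 with s18789 and -0.06 to 0.08 in controls, the highest control being replicate 4. GINS2 (0.37 ± 0.12, adjusted p = 0.515) and GINS3 (0.35 ± 0.10, adjusted p = 0.404), subunits of the replicative helicase, and the ribonucleotide reductase subunit RRM2 (0.31 ± 0.09, adjusted p = 0.420) were the members that differed most. Mitotic genes had a median of 0.12 over 44 measured with 0 calls, which was 0.05 without control replicate 4; CENPF (0.45 ± 0.60) and KIF11 (0.37 ± 0.51) carried wide errors.

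Markers of neuroblastoma cell states gave 1 call. Of 20 measured adrenergic markers GAP43, already counted among the growth cone genes, was called, beside 0.102% of all genes, and the median was 0.03. Of the 20, 4 lay above all controls and 4 below, 40% without overlap beside 7.72% of all genes. The imprinted membrane protein DLK1 (0.50 ± 0.12, adjusted p = 0.226) and the oncogene MYCN (0.49 ± 0.14, adjusted p = 0.423) lay above all controls, and the transcription factor TBX2 (-0.46 ± 0.14, adjusted p = 0.438) lay below them. Of 20 measured mesenchymal markers 0 were called, 6 had positive differences, and the median was -0.16, between -0.21 and -0.08 under the alternatives. On single arrays that median was -0.23 to -0.10 with s18789 and -0.05 to 0.13 in controls, with 0.13 on control replicate 4. The transcription factor SNAI2 read 7.44, 7.44, 7.59 and 7.44 in controls and 6.96, 6.84, 6.94 and 7.01 with s18789 (-0.54 ± 0.11, adjusted p = 0.125), and IL13RA1 (-0.39 ± 0.11, adjusted p = 0.377) and COL5A1 (-0.36 ± 0.12, adjusted p = 0.535) were also below all controls. Whether the share of cells in either state moved with s18789 was not tested.

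Lists of antiviral, stress and activity responses gave 0 calls. The type I interferon list had 11 measured genes, 0 calls and a median of -0.10; IFITM2 (-0.42 ± 0.13, adjusted p = 0.461) and IRF9 (-0.36 ± 0.12, adjusted p = 0.491) lay below all controls. The RNA interference machinery had 14 measured genes, 0 calls and a median of 0.04, the p53 targets 21, 0 and -0.05 (0.03 with median scaling), and the ER unfolded protein response 20, 0 and 0.06. ATF4 and amino acid stress genes had 27 measured, 0 calls and a median of 0.09, with array medians of 0.03 to 0.17 for s18789 and -0.04 to 0.15 in controls, which overlapped. Synaptic vesicle genes (25 measured, median 0.00) and immediate early genes (21 measured, median 0.03) gave 0 calls as well.

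**Figure D3:**
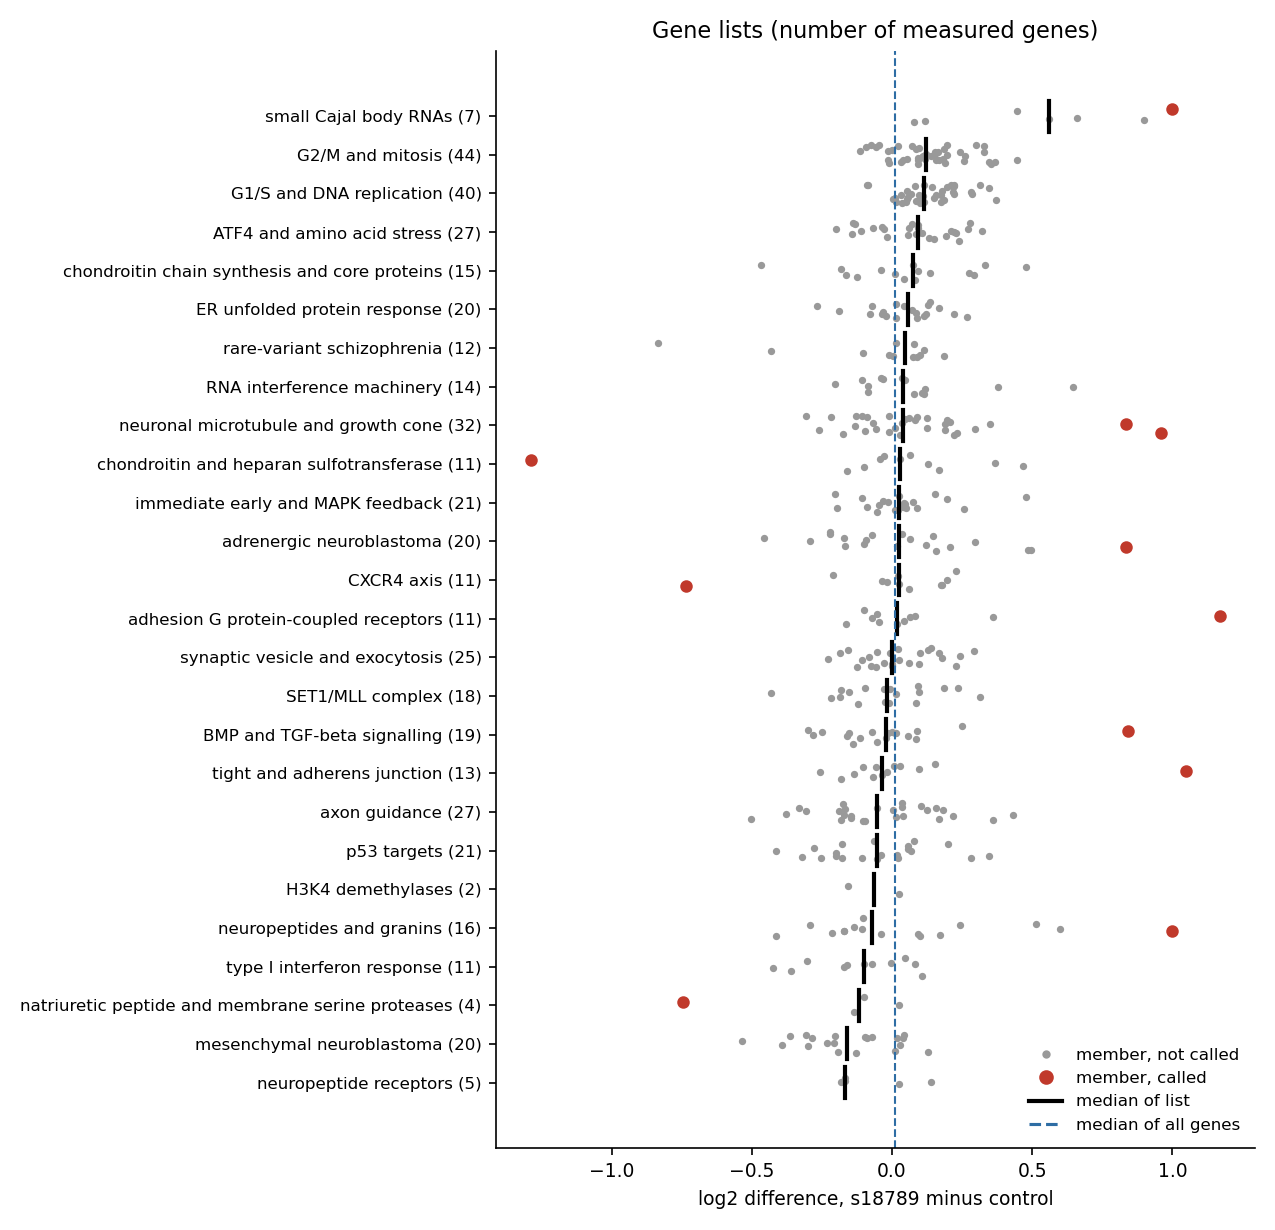
Log2 difference, s18789 minus control, of each measured gene in 26 lists, with called genes in red, the list median as a black bar and the median of all genes, 0.01, as a dashed line; genes below background in a group are shown at their fitted difference. The small Cajal body RNAs, some of them kept only through the arrays where they are high, have a median of 0.56, and the other lists lie between -0.17 and 0.12.

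**Figure D4:**
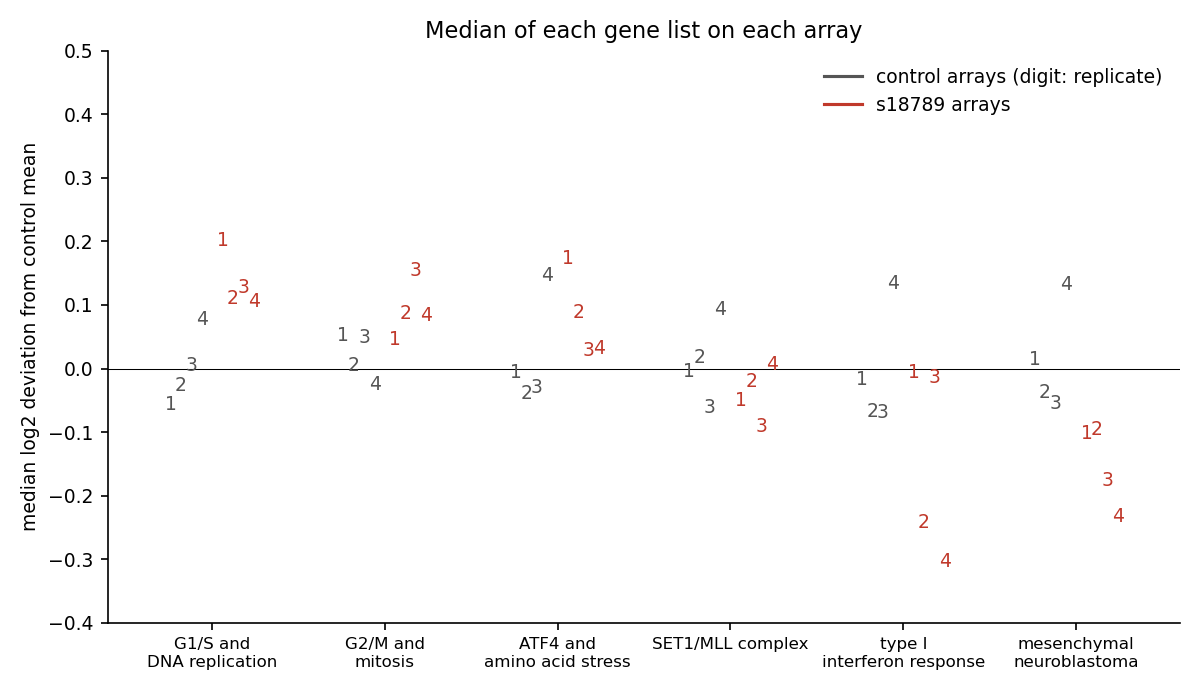
Median log2 deviation from the control mean on each array for 6 lists, with digits for the replicate, controls in grey and s18789 in red. The G1/S list and the mesenchymal list have s18789 arrays that do not overlap the controls, and control replicate 4 lies highest among the controls for 5 of the 6 lists.

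The same controls served the other siRNA, so its values are set beside those of s18789 without a measure of likeness. With s18790, 967 of 9833 genes (9.83%) were called, 497 higher (5.05%) and 470 lower (4.78%), among 1323 probes (8.31%). SETD1A differed from control by -0.63 ± 0.15 (adjusted p = 0.0276) beside -0.43 for s18789. The siRNAs themselves did not differ in SETD1A level beyond the error (s18789 minus s18790 0.20, 95% interval -0.14 to 0.53, adjusted p = 0.468, exact permutation p = 0.229). Relative to control, s18790 gave 1.34 for ADGRG2, 1.05 for TMEM100, 1.26 for GAP43 and -0.45 for CXCR4, each called. NTS was called too and at least 1.02-fold higher, and CORIN was at least 1.31-fold lower, on no array above background with either siRNA. DCX (0.44 ± 0.15, adjusted p = 0.0989) and CGNL1 (0.40 ± 0.15, adjusted p = 0.110) were not called with s18790, and SCARNA8 was above background on 1 of its 4 arrays.

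In the direct contrast of the siRNAs, with the error estimated over all 12 arrays, 498 of 9833 genes (5.06%) were called, 203 higher with s18789 and 295 lower. By probe 667 were called (4.19%), 295 higher and 372 lower, but 200 with only the siRNA arrays in the fit and 206 to 1084 when single arrays were left out, the extremes being without s18789 replicate 4 and without s18790 replicate 3. Median scaling shifted the median of all probes in this contrast to 0.14 and called 693 probes, 591 higher and 102 lower, of which 387 were among the 667. Of the called genes, CHST15 differed most. It read 8.81, 8.81, 8.41 and 8.89 on s18790 replicates 1 to 4, above every control, while s18789 lay below every control. The siRNAs were -2.51 ± 0.13 apart (adjusted p = 1.2e-06), with -1.29 for s18789 and 1.22 for s18790 against control. CGNL1 was higher with s18789 than with s18790 (0.65 ± 0.15, adjusted p = 0.0300), a call that 7 of 23 alternatives ended. The difference was not called for ADGRG2 (-0.17, interval -0.37 to 0.02), TMEM100 (-0.21 ± 0.11), GAP43 (-0.42 ± 0.13), DCX (0.52 ± 0.15), NTS (0.36 ± 0.14), SCARNA8 (0.50 ± 0.14) or CXCR4 (-0.28 ± 0.12).

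The 6 named genes that were higher with s18789 than with s18790 had s18789 values that overlapped the controls. HS6ST2, a heparan 6-sulfotransferase, read 8.14, 8.10, 8.22 and 8.42 with s18789, beside 8.44, 8.49, 8.26 and 7.86 in controls and 7.04, 6.06, 7.21 and 6.71 with s18790 (s18789 minus s18790 1.47 ± 0.22, adjusted p = 0.0038). The chloride channel protein CLIC4 (0.05 ± 0.17 against control), TMEM64 (0.03 ± 0.16), PIP4P2 (-0.01 ± 0.24), CPED1 (0.09 ± 0.29) and the neuropeptide VIP (0.24 ± 0.31) were each higher with s18789 than with s18790 by 1.13 to 1.29. The call between the siRNAs ended in 11 of 24 alternatives for VIP (adjusted p up to 0.112), in 11 of 23 for CPED1 (up to 0.122) and in 7 of 23 for PIP4P2 (up to 0.0766). The metallothionein MT1F, the corepressor TLE2 and the neurturin receptor GFRA2 were lower with s18789 than with s18790 by -2.08 ± 0.16, -1.46 ± 0.17 and -1.38 ± 0.15. Against control MT1F differed by -0.68 with s18789, TLE2 by -0.68 with s18789 and 0.79 with s18790, and GFRA2 by -0.65 and 0.72; the s18789 values lay below all controls and were not called. STMN4, a neuronal stathmin, and MAGEC2, a cancer-testis antigen, were lower with s18789 than with s18790 by -1.64 ± 0.17 and -1.57 ± 0.17. MAGEC2 was above background on no control array, so the detection filter kept it through siRNA arrays only.

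**Figure D5:**
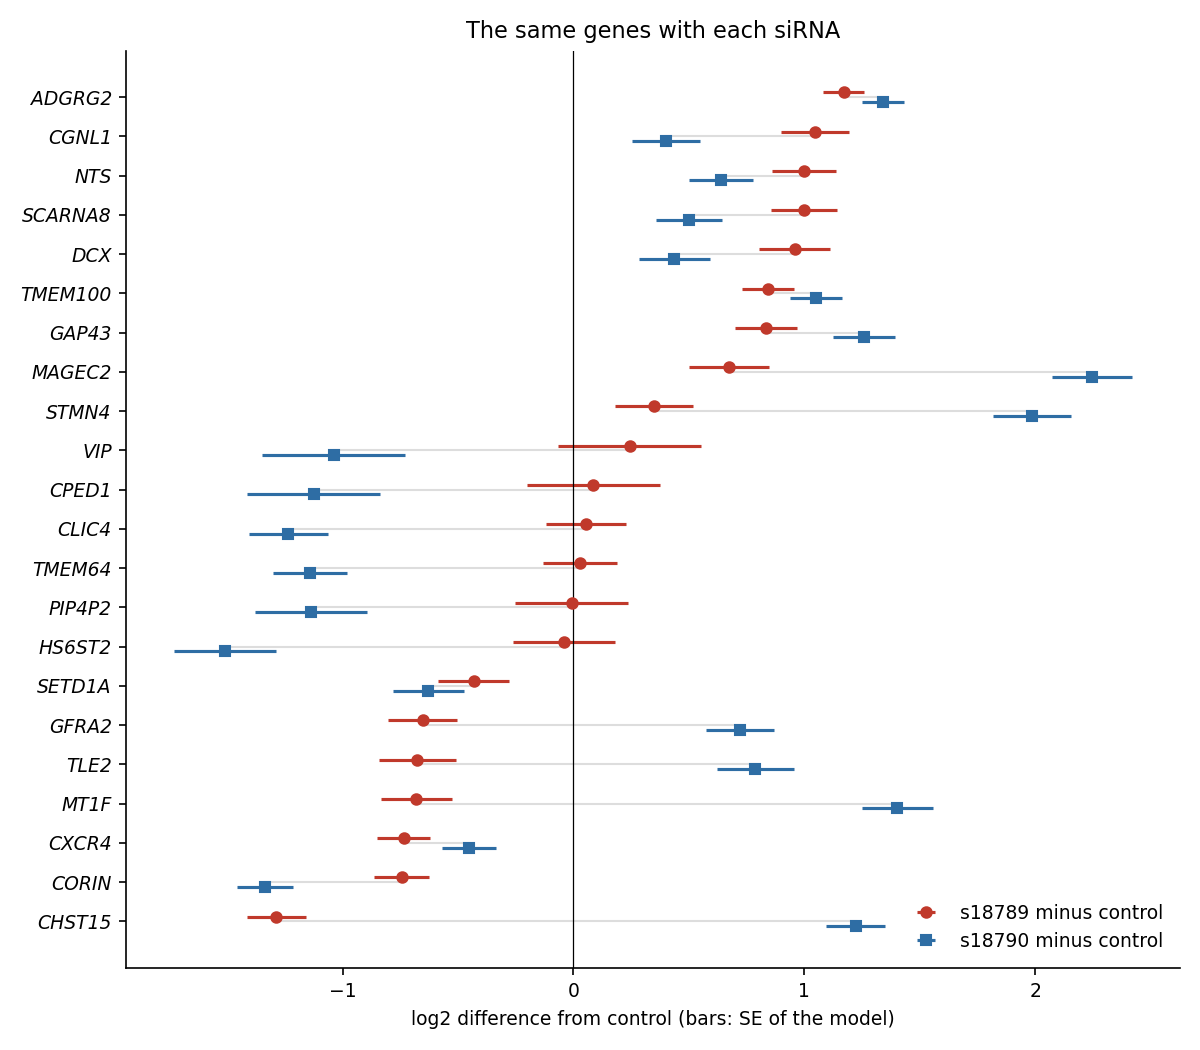
Log2 difference from the shared controls with s18789 (red circles) and s18790 (blue squares) for SETD1A, the 10 called genes and the genes that differ most between the siRNAs, with the SE of the model as bars; NTS, SCARNA8, CORIN and MAGEC2 are fitted differences from a group below background. CHST15 lies at -1.29 with s18789 and 1.22 with s18790, while ADGRG2 lies at 1.17 and 1.34.

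Of the called probes without a gene name, ILMN_1674442 was above background on all 4 s18789 arrays and on no control or s18790 array. It was at least 1.50-fold higher than control (adjusted p = 0.0184). The detection filter kept it through the s18789 arrays only, so its being kept is no support for a direction. ILMN_1710954 read 7.11, 7.10, 7.13 and 7.50 in controls and 6.33, 6.52, 6.34 and 6.24 with s18789 (-0.85 ± 0.11, adjusted p = 0.0181). ILMN_1703511 read 6.49, 6.63, 6.35 and 6.73 in controls and 5.85, 5.84, 5.92 and 5.71 with s18789 (-0.72 ± 0.11, adjusted p = 0.0299). None of these groups overlapped. ILMN_1741604, the last called probe, differed by -0.67 ± 0.11 (adjusted p = 0.0388) and was above background on 1 of 4 s18789 arrays. All 4 calls ended without at least 1 control and 1 s18789 array, with adjusted p of 0.0566 to 0.204. Without s18790 replicate 4, ILMN_1703511 and ILMN_1741604 lost theirs too (0.0504 and 0.0583). So did ILMN_1703511 without s18790 replicate 1 (0.0557) and ILMN_1741604 without s18790 replicate 3 (0.0728). These 2 probes each also lost the call in 6 other alternatives, among them no background correction, an offset of 50 and median scaling. ILMN_1674442 lost it in 3 such alternatives and ILMN_1710954 in 1.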

How the data were processed

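Per the file headers and values, the authors deposited raw bead brightness: 1 mean intensity per probe and array, linear and neither background-subtracted nor scaled between arrays. GenomeStudio was used per the submitters' processing notes, which give no version. The deposited detection p-value tells how often negative control beads were as bright. Log2 values deposited for the same arrays, made by a transform that no source used here states, served only as an alternative.

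Intensities were background corrected by the normal-exponential model through the detection p-values with an offset of 16, quantile normalized and taken to log2 with limma 3.58.1 in R 4.3.3. Probes with a detection p under 0.01 on at least 4 of 12 arrays were kept, 12654 of the 15922 with a gene symbol from the platform annotation and 3268 unnamed. Of 30113 probes with 1 symbol, 30074 were checked by gene identifier against a current table and 0 changed; 8 had several symbols and are unnamed in the text. A mean per group was fitted over all 12 arrays (9 residual degrees of freedom), contrasts were tested with eBayes, and p-values were adjusted over all kept probes by Benjamini-Hochberg. Errors after ± are standard errors of this model unless called SD. The probe with the highest mean stood for a gene. The procedure was tested on simulated data.

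The comparison and the 27 gene lists were chosen with earlier results of these data known, so counts over lists are descriptions. Named genes are SETD1A, every called gene with its other kept probes, called unnamed probes up to 2 each way, the 10 largest uncalled differences each way without overlap and above background on all 4 arrays of a group, up to 4 members per list and 6 genes each way between the siRNAs; ILMN_1741604 and other list members named in the text were chosen after their values were seen. Fold bounds follow the rule given beside NTS. Promoters were matched by symbol for 8056 of 9833 genes. No source used here names the chip of an array, and no such batch was analysed. Alternatives changed the background correction, offset, scaling, detection filter, variance model, samples fitted, array weights and replicate block, used the deposited log2 values, or left out arrays. The number of arrays limits the precision. Figures were drawn with matplotlib 3.10.9.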

Additional observations from a re-analysis of the deposited data

Results flagged for a closer look

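Single arrays stood far from the other 3 of their group for 14 of 168 groups of values examined. For independent groups about 1 in 20, or 8.4, would do so by chance. These groups share the same 8 arrays and many of the probes were picked by their values, so the 14 cannot be tested against 8.4. Control replicate 4 was the array in 10 of them, the same array that lay apart on the first principal component. It read higher than the other controls for GAP43 (8.01 against a median of 7.51), TLE6 (7.53 against 6.98), MT1F (7.72 against 7.23), MAGEC2 (5.21 against 4.83) and the unnamed probe ILMN_1710954 (7.50 against 7.11). It read lower for KCNQ3 (5.64 against 6.51), VIP (8.58 against 9.34), PIP4P2 (6.98 against 7.66), the mitotic kinesin KIF11 (7.64 against 8.85) and the microRNA-processing enzyme DICER1 (6.30 against 7.23). The remaining arrays were control replicate 3 for SNAI2 (7.59), s18789 replicate 3 for GAP43 (8.4), s18789 replicate 2 for ADGRV1 (5.86) and s18789 replicate 1 for ATF6, a sensor of the unfolded protein response (8.52).

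The direct contrast of the siRNAs passed the test for these genes, given as s18789 minus s18790 on the log2 scale. Among genes called against control these were CHST15 (-2.51), CGNL1 (0.65) and the unnamed probes ILMN_1703511 (-0.74) and ILMN_1710954 (0.65). The unnamed probe ILMN_1674442, above background on no s18790 array, was at least 1.46-fold higher with s18789. Among uncalled genes whose groups did not overlap they were GPC3 (0.65), ADAMTS3 (0.79), LRRC26 (-1.26), ZNF467 (-1.24), TLE6 (-0.84), CALY (-0.70) and SYT7 (-0.94). Chosen for this contrast itself were HS6ST2 (1.47), CLIC4 (1.29), VIP (1.28), CPED1 (1.21), TMEM64 (1.17), PIP4P2 (1.13), MT1F (-2.08), STMN4 (-1.64), MAGEC2 (-1.57), TLE2 (-1.46) and GFRA2 (-1.38). Of these calls, alternatives ended that of VIP in 11 of 24, of CPED1 in 11 of 23, and of PIP4P2 and CGNL1 in 7 of 23 each. CORIN was above background with neither siRNA and is left out.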

How the results depend on the processing

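SETD1A kept its direction and stayed uncalled under all 24 alternatives fitted. Its difference could not change, and stayed at -0.43, with another detection filter or variance model, with the replicate block, or with only the compared groups. The same holds without any s18790 array, so its direction was fixed in those settings. Against the 15 probes called for s18789 and control, 9 were called among probes detected on all 12 arrays, 37 with only the compared groups in the fit, 384 with array weights, 123 without both arrays that stood apart, and 3 to 80 when single arrays were left out. Against the 667 probes called between the siRNAs, the same settings after the first gave 200, 1578, 1633 and 206 to 1084. Against 10 called list members, array weights gave 31, leaving out both arrays apart gave 17, and leaving out single arrays gave 2 to 17. With the replicate number as a block the counts were 3, 292 and 2, and ADGRG2 and CHST15 kept their calls. Correlations of same-numbered control and s18789 arrays, as deviations from the group means, were -0.33, -0.13, 0.37 and -0.49. Those of s18789 and s18790 arrays were -0.23, 0.21, 0.46 and 0.41, and those of control and s18790 arrays 0.155, -0.485, 0.575 and -0.582. The s18789 arrays most correlated with control replicates 1 to 4 were replicates 4, 4, 4 and 1. The most correlated s18790 arrays were replicates 3, 3, 3 and 2 for the controls, and 2, 2, 3 and 3 for s18789 replicates 1 to 4. Deviations within a group sum to 0 and single arrays stood apart, so these values do not settle whether the numbers mark pairs. The labels do not say that a number marks a shared culture, and the main fit has no replicate block. Median scaling moved the median of all kept probes to 0.08. Values changed sign for ADGRG2 between the siRNAs under median scaling (0.022, adjusted p = 0.944) and for the opioid receptor OPRM1 against control without s18789 replicate 1, where leaving out single arrays gave -0.32 to 0.029; the cause was not tested. Of 2334 alternative values of named genes 2068 kept direction and side of the threshold, 177 lost a call and 87 gained one. Of 650 list medians 47 moved by more than 1 SD between the s18789 arrays. Median scaling alone moved 18 of the 26 lists. Leaving out an s18790 array, fitting only the compared groups, the replicate block, another variance model or no detection filter cannot move a list median. These counts are therefore no measure of stability. Signal near background limits what can be said of NTS, CORIN and the small Cajal body RNAs.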

Other observations

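Some genes outside the lists lay close to the threshold with small errors; they were chosen after their values were seen. The kinesin light chain KLC1, which links cargo to the motor, differed by 0.50 ± 0.09 (adjusted p = 0.0940), with 0.23 ± 0.14 for its dimmer probe (adjusted p = 0.986), and the ARF GTPase-activating protein SMAP1 by 0.59 ± 0.12 (adjusted p = 0.140). The recombination cofactor ZSWIM7 differed by -0.49 ± 0.09 (adjusted p = 0.0986), the metallopeptidase AMZ2 by -0.45 ± 0.09 (adjusted p = 0.107) and the homeobox gene HOXD10 by -0.49 ± 0.10 (adjusted p = 0.121). For each of these genes the 4 s18789 arrays lay on one side of the 4 controls, as for 7.72% of all genes.

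Of list members not described above, the immediate early gene JUN differed by 0.48 ± 0.17 (adjusted p = 0.623) and the synaptic vesicle protein SYN1 by 0.29 ± 0.22 (adjusted p = 1), and their groups overlapped. The piRNA pathway gene GTSF1 was above background on no control array and on 1 of 4 s18789 arrays, and with s18790 it was at least 1.57-fold higher than control (adjusted p = 0.00031). The detection filter kept it through siRNA arrays only.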
